A study of Mus musculus with 9 samples.

Results

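Liver RNA of alcohol-fed mice that also received MNA (AF_MNA) was compared with liver RNA of pair-fed control mice (PF), to see which differences from control were present under alcohol when MNA was given. These are 6 of the 9 libraries of the series, 3 in each group, and the members are the entries of the gene table that held a known transcript and a gene name and averaged 0.5 FPKM or more across those libraries. Of 52151 entries in the table, 12276 met this rule. FPKM counts sequenced fragments relative to transcript length and to library size.

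The PF mice received an isocaloric control liquid diet, and the AF_MNA mice received the Lieber-DeCarli diet, a liquid diet with alcohol, together with daily intraperitoneal MNA at 50 mg/kg of body weight. Feeding lasted 5 weeks. The labels give liver as the tissue and an age of 8 weeks for all animals, and the methods give male C57BL/6J mice. The strain is written C57BL/6 for PF and C57BL/7, C57BL/8 and C57BL/9 for the 3 AF_MNA libraries. MNA is not spelled out in the labels, and an injection of vehicle is stated for neither PF nor the group fed alcohol alone (AF). No pair-fed group with MNA is analysed here, so in AF_MNA against PF the part of alcohol and the part of MNA cannot be told apart. AF, also 3 libraries, is set beside the comparison where it shows whether a difference from PF was present without MNA.

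Hepatocytes clear ethanol and other foreign compounds with oxidising enzymes, above all cytochromes P450 and alcohol dehydrogenases, and then with transferases that attach glutathione, glucuronic acid or sulfate. The receptors CAR and PXR switch on Cyp2b, Cyp2c and Cyp3a genes, the factor NRF2 switches on glutathione and redox genes, and PPAR alpha switches on the oxidation of fatty acids. Male mouse liver also expresses a set of genes, the major urinary proteins among them, that depends on pulses of growth hormone.

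Total reads lay between 61286037 and 66981483 in PF and between 57800660 and 82179248 in AF_MNA. AF_MNA replicate 1 stood apart in the signal of transcripts inside introns, which summed to 8934 FPKM in it against 2477 to 4937 in the other 5 libraries. Hepatocyte markers summed to 14964 to 20334 FPKM in PF and 18374 to 20812 in AF_MNA. Markers of Kupffer cells and macrophages summed to 101.9 to 131 FPKM in PF and 131 to 167 in AF_MNA, and those of sinusoidal endothelial cells to 34.4 to 42.3 and 49.8 to 58.1. Stellate cell markers summed to 32.1 to 37.7 FPKM in PF and 33.4 to 46.8 in AF_MNA, cholangiocyte markers to 3.29 to 4.36 and 3.34 to 6.38, and erythroid markers to 332 to 450 and 286 to 420. Markers of T, B or NK cells summed to 2.3 to 2.97 FPKM in PF and 1.38 to 1.97 in AF_MNA, and 1 of these 9 markers was high enough to be tested. Neutrophil markers summed to at most 1.47 FPKM and those of acinar cells to at most 7.2, and markers of adipocytes and skeletal muscle were near 0. In bulk tissue, fewer cells of a type and less RNA per cell cannot be told apart.

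An entry was called when limma gave an unadjusted p under 0.05 and the mean FPKM of the groups differed by more than 1 on the log2 scale in either direction. By this rule 477 of the 12276 entries (3.89%) differed between AF_MNA and PF, 238 higher (1.94%) and 239 lower (1.95%) in AF_MNA. An unadjusted p under 0.05 alone was given to 1776 entries (14.5%). After adjustment over all tested entries, 53 (0.432%) had an adjusted p under 0.05, 37 higher and 16 lower in AF_MNA. That count was 22 with every entry above 0 FPKM, and 0 in a linear model with library size as a covariate and 0 with the replicate number as a block, where 1227 and 1452 entries had an unadjusted p under 0.05. Library size here was the sum of log2(FPKM + 1) values up to the upper quartile of values above 0, not the total reads. It was 24 without AF_MNA replicate 3 and 34, 35 and 34 without PF replicates 1, 2 and 3. In 2630 entries (21.4%) all 3 libraries of one group lay above all 3 of the other, and 425 of the 477 called entries were among them. Of the called entries 326 were protein-coding, and 61 were listed at 0 in at least 1 of the 6 libraries. The 0.5 FPKM rule used the mean over both groups, so that a gene at or near 0 in one group could enter through the other, and a count or median over a list describes the entries that entered. Differences are given below as limma's estimate on the log2(FPKM + 1) scale with its standard error, AF_MNA minus PF, from 3 libraries a group, and this scale understates the change of genes with low FPKM. Over all tested entries the median difference was -0.02. An exact permutation test of 3 against 3 libraries cannot go below p = 0.1.

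The drug-inducible P450 enzymes of the Cyp2a, Cyp2b, Cyp2c and Cyp3a families held the largest share of called genes of any list. Of 24 tested members 14 rose, 1 fell and 9 did not pass the threshold, which is 62.5% called beside 3.89% of all entries, and the median difference was 1.40. Without AF_MNA replicate 1 the counts were 13 higher and 3 lower, and with every entry above 0 FPKM they were 14 and 1 of 30 with a median of 0.85. The upstream sequences of 5 risen Cyp2a and Cyp2b members are shown to compare the start regions of related genes. The lines give 100 bases around the RefSeq transcription start in GRCm38.p6, 5′ to 3′, with capitals where a gene differs from its partner.
Cyp2b10, chr7:25897578-25897677, plus strand, beside Cyp2b9: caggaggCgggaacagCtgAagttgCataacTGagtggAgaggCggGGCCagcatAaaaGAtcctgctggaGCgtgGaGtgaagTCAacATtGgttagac
Cyp2b9, chr7:26173328-26173427, plus strand, beside Cyp2b10: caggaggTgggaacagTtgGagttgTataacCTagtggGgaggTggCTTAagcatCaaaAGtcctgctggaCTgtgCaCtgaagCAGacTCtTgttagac
Cyp2b13, chr7:26061415-26061514, plus strand, beside Cyp2b9: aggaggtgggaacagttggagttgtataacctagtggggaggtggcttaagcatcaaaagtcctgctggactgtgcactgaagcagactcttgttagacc
Cyp2a4, chr7:26307112-26307211, plus strand, beside Cyp2a5: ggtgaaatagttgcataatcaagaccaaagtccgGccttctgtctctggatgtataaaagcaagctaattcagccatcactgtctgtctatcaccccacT
Cyp2a5, chr7:26835258-26835357, plus strand, beside Cyp2a4: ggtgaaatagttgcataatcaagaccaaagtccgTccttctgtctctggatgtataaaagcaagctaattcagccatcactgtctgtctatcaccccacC
Over the whole promoter windows of 300 bases, Cyp2b9 and Cyp2b13 were identical at 298 of 300 compared bases (99.3%) and Cyp2a4 and Cyp2a5 at 294 of 299 (98.3%) after a shift of 1 base. Cyp2b10 and Cyp2b9 matched at 147 of 299 (49.2%), also after a shift of 1 base. Bases were compared one by one without gaps, so that an inserted or missing base lowers the match. In the 100 bases shown this pair differed at 25, and its likeness with gaps allowed was not tested.

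Cyp2b10, the classical CAR target of mouse liver, measured 0.28, 0.22 and 3.33 FPKM in the PF libraries and 183, 122 and 103 FPKM in AF_MNA. Every AF_MNA library was far above every PF library, and the difference was 6.14 ± 0.53 (adjusted p = 0.017). Cyp2b9, normally a gene of female liver, measured 0.02, 0.01 and 0.15 FPKM in PF and 29.5, 8.85 and 11.5 in AF_MNA, a difference of 3.87 ± 0.41 (adjusted p = 0.029). Its neighbour Cyp2b13 measured 0, 0.01 and 0 FPKM in PF, where it was listed at 0 in 2 libraries, and 25.5, 6.01 and 11.6 in AF_MNA. The groups did not overlap for either gene, and AF_MNA replicate 1 was the highest library for both. Without that library the differences were 3.39 and 3.23.

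Cyp2a5, a coumarin hydroxylase that also oxidises nicotine, measured 153, 162 and 189 FPKM in PF and 1477, 1210.4 and 979 in AF_MNA. The lowest AF_MNA library was thus above every PF library, and the difference was 2.84 ± 0.19 (adjusted p = 0.0088). Cyp2a4, a steroid hydroxylase, measured 1.34, 1.22 and 1.66 FPKM in PF and 48.2, 19.0 and 21.5 in AF_MNA, with a difference of 3.55 ± 0.34 (adjusted p = 0.023). A pseudogene of the same cluster, Cyp2a21-ps, had one of the lowest adjusted p-values of all entries, with a difference of 2.28 ± 0.11 (adjusted p = 0.003). These genes are paralogs, and how far their transcripts share reads was not tested.

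Among the Cyp2c enzymes, which oxidise arachidonic acid and many drugs, Cyp2c29 measured 63.0, 32.1 and 53.7 FPKM in PF and 524, 326 and 385 in AF_MNA. The groups did not overlap, and the difference was 3.05 ± 0.30 (adjusted p = 0.023). Cyp2c54 measured 64.7, 72.3 and 67.8 FPKM in PF and 268, 252 and 235 in AF_MNA, with little spread within either group and a difference of 1.87 ± 0.12 (adjusted p = 0.0066). Cyp2c55, expressed at a low level, differed by 1.17 ± 0.10 (adjusted p = 0.017). It averaged 0.26 FPKM in PF and entered the test only through AF_MNA. Cyp2c37, Cyp2c38 and Cyp2c50 also rose, by 1.64, 1.12 and 1.63.

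With all 6 libraries the 1 member that fell was a Cyp2c gene. Cyp2c67 measured 64.4, 124 and 63.8 FPKM in PF and 27.8, 32.6 and 30.6 in AF_MNA, and the difference was -1.37 ± 0.27 (adjusted p = 0.13). Cyp3a11, the main PXR-responsive P450 of mouse liver, rose from 71.9, 119.9 and 128 to 405, 374 and 295 FPKM, a difference of 1.77 ± 0.26 (adjusted p = 0.077). Cyp3a59 and Cyp2a22 rose by 1.70 and 2.28, while Cyp3a13 and Cyp3a25 did not pass the threshold (differences of 0.21 and -0.21).

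The receptors and partner proteins of the P450 system showed smaller differences. Of 32 tested members of that list 3 rose and 1 fell (12.5% called), with a median of 0.16. The count of 4 became 2 without AF_MNA replicate 1, AF_MNA replicate 2 or PF replicate 1, and 1 without PF replicate 3. With all 9 libraries in the fit 1 was higher and 1 lower. Nr1i3, the gene of CAR, measured 11.3, 16.0 and 12.1 FPKM in PF and 25.8, 47.2 and 18.3 in AF_MNA, without overlap, and the difference was 1.06 ± 0.34 (adjusted p = 0.27). It lost its call without AF_MNA replicate 2, PF replicate 1 or PF replicate 3. Nr1i2, the gene of PXR, did not pass the threshold (difference 0.02 ± 0.19 (adjusted p = 0.98)), and neither did Ppara (difference 0.43 ± 0.15 (adjusted p = 0.28)). Ahr, the dioxin receptor, differed by -0.58 ± 0.09 (adjusted p = 0.091) with no overlap but by less than the threshold ratio, and the retinoid receptor gene Rxrg and the electron carrier gene Cyb5a differed by 0.46 ± 0.12 and 0.69 ± 0.18. Hmox1, which breaks down heme, rose from 6.51, 6.48 and 4.80 to 19.8, 18.1 and 8.46 FPKM, a difference of 1.18 ± 0.32 (adjusted p = 0.22).

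Pgrmc1, a heme-binding partner of P450 enzymes, had a value that depended on one PF library. It measured 260.0, 27.4 and 26.9 FPKM in PF and 333, 366 and 343 in AF_MNA, so that PF replicate 1 lay near AF_MNA and the other PF libraries far below. The difference of 2.56 ± 0.87 (adjusted p = 0.28) was called, but not when any single library other than PF replicate 1 was left out, and without PF replicate 1 it was 3.63. Its relative Pgrmc2 fell, from 16.0, 10.1 and 17 to 1.3, 1.00 and 11.1 FPKM, with AF_MNA replicate 3 among the PF values.

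**Figure D1:**
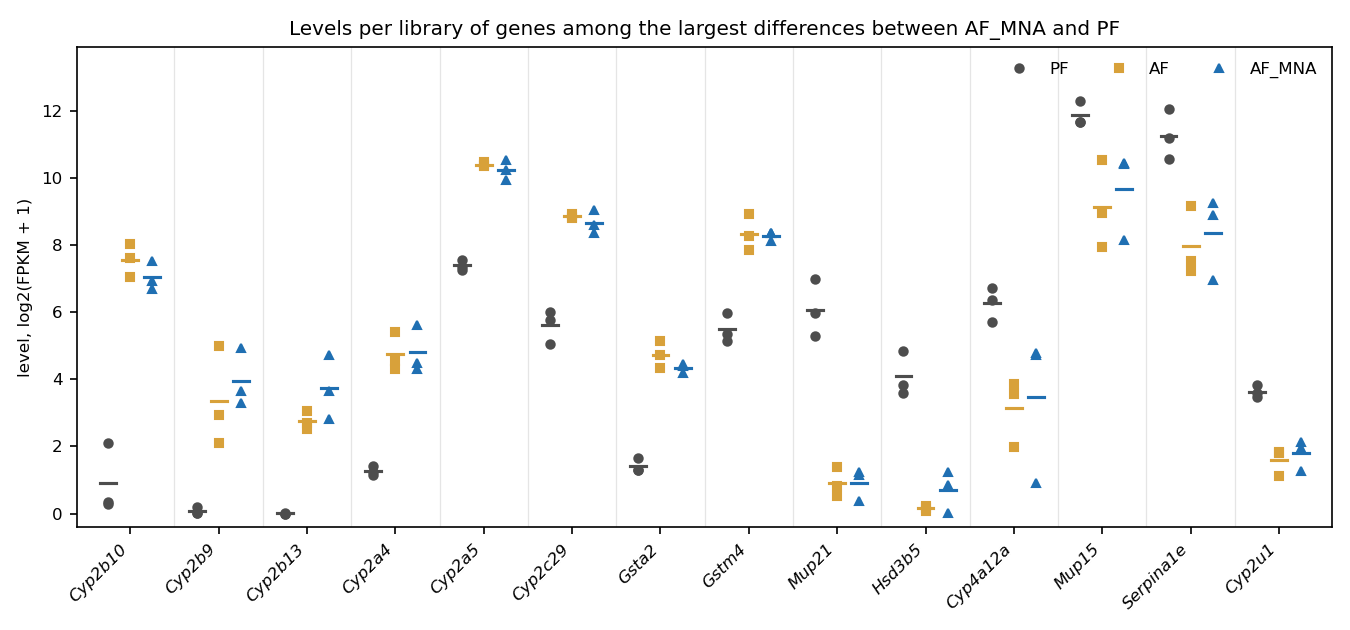
Levels of 14 genes on the log2(FPKM + 1) scale in each library (points) with the group mean (bars) for PF, AF and AF_MNA. The 8 genes on the left lie higher in all 3 AF_MNA libraries than in any PF library, and the 6 on the right lower. AF_MNA replicate 1 is the lowest of its group for each of these 6.

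Glutathione transferases join glutathione to reactive compounds. Of 25 tested genes of glutathione conjugation and synthesis 6 rose and none fell (24.0% called), with a median difference of 0.37. Gsta2 measured 1.46, 1.48 and 2.15 FPKM in PF and 20.1, 20.9 and 17.3 in AF_MNA, and the difference was 2.93 ± 0.14 (adjusted p = 0.003). Both groups were tight, and its adjusted p was among the 3 lowest of all entries. The entry named Gstm4, which also holds Gstm1, rose from 34.5, 40.2 and 62.0 to 329, 328 and 277 FPKM, a difference of 2.79 ± 0.23 (adjusted p = 0.017). The entry named Gstm3, which also holds Gstm6, differed by 2.13 ± 0.18 (adjusted p = 0.017). Gsta4 rose by 1.28, Mgst3 by 1.78 and Gclc, the catalytic subunit of glutathione synthesis, by 0.90, and Gstt2 differed by 0.66 ± 0.09 (adjusted p = 0.05), under the threshold ratio.

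Of 17 tested NRF2 target genes 8 rose and none fell (47.1% called), and the median difference was 0.78. Besides Gsta2, Gstm3 and Gclc, which are also counted above, these were Nqo1, Hmox1, Ephx1, Abcc3 and Abcc4. Abcc4 measured 0.31, 0.32 and 0.25 FPKM in PF and 7.11, 1.88 and 2.92 in AF_MNA, and entered the test only through AF_MNA. Taking every entry above 0 FPKM, 8 of 18 rose. Ephx1, the microsomal epoxide hydrolase, measured 74.5, 68.9 and 55.6 FPKM in PF and 199, 221 and 197 in AF_MNA, and the difference was 1.63 ± 0.15 (adjusted p = 0.017). Nqo1, a quinone reductase, rose from 2.23, 1.26 and 1.84 to 4.50, 5.08 and 6.91 FPKM, a difference of 1.22 ± 0.19 (adjusted p = 0.09). The efflux pump genes Abcc3 and Abcc4, which move conjugates out of the hepatocyte, differed by 1.32 ± 0.16 (adjusted p = 0.046) and 1.80 ± 0.37 (adjusted p = 0.14). No AF_MNA library overlapped PF for these 4 genes. The letters TGACNNNGC, the core of the antioxidant response element, were searched on both strands of the 300 bases around the start, and 1 of the 5 risen members with a RefSeq window held them, Abcc4, against 14.9% of 8302 windows of tested genes.

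Other conjugating enzymes had few called genes. Of 33 tested sulfotransferases, glucuronosyltransferases, esterases and related enzymes 3 rose and 1 fell (12.1% called), with a median of 0.33. Without AF_MNA replicate 3 the counts were 6 and 1, without PF replicate 1 they were 4 and 4, and without AF_MNA replicate 1 they turned to 2 higher and 4 lower. Ces2a, a carboxylesterase, measured 30.0, 43.5 and 44.8 FPKM in PF and 109, 96.8 and 85.1 in AF_MNA, with a difference of 1.29 ± 0.19 (adjusted p = 0.078). Sult2a8, a sulfotransferase of male liver, fell from 110.3, 129 and 129 to 66.4, 46.7 and 64.2 FPKM, a difference of -1.06 ± 0.17 (adjusted p = 0.091), and lost its call without AF_MNA replicate 2. Ces2g had an adjusted p of 0.05 with a difference of 0.78 ± 0.10, below the threshold ratio.

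Of 40 tested genes that are normally higher in male than in female liver, 14 fell, 1 rose and 25 did not pass the threshold (37.5% called), and the median difference was -0.84. Mup21, a major urinary protein gene, measured 61.8, 125 and 37.9 FPKM in PF and 0.31, 1.38 and 1.20 in AF_MNA. The 3 AF_MNA libraries were close to 0 and the difference was -5.15 ± 0.46 (adjusted p = 0.017). Hsd3b5, a steroid reductase of male liver, fell from 11.1, 27.6 and 13.3 to 0.01, 0.80 and 1.38 FPKM, a difference of -3.38 ± 0.43 (adjusted p = 0.048). Serpina1e, a protease inhibitor, fell from 2319, 4221 and 1520.1 to 122, 477 and 615 FPKM, a difference of -2.89 ± 0.69 (adjusted p = 0.17).

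The AF_MNA libraries did not agree on how far these genes fell. Cyp4a12a, a fatty acid hydroxylase under androgen control, measured 81.9, 105 and 51.5 FPKM in PF and 0.88, 26.7 and 25.4 in AF_MNA, and Mup15 measured 3257, 5004 and 3230.1 and 282, 1409 and 1366 FPKM. In both cases AF_MNA replicate 1 was far below replicates 2 and 3, which were themselves below PF. The differences of -2.79 ± 1.06 (adjusted p = 0.32) and -2.20 ± 0.65 (adjusted p = 0.25) became -1.51 and -1.43 without that library, and for the whole list the median became -0.38, with 12 lower and 1 higher. This is the library with the high intron signal. With that signal as a covariate the differences of Cyp4a12a and Mup15 were -2.72 and -2.15, and the list had 15 lower and 1 higher with a median of -0.82. The linear model with library size as a covariate gave 14 lower and 1 higher with a median of -1.40. Cyp4a12a also lost its call without any one of the PF libraries, and its neighbour Cyp4a12b (difference -2.37 ± 0.78 (adjusted p = 0.28)) without PF replicate 1 or 2.

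The other male-biased genes that fell were Mup3, Cyp2u1, Elovl3, Slco1a1, Serpina12, C6, Egfr and Bcl6. Cyp2u1 measured 13.3, 11.0 and 10.0 FPKM in PF and 1.43, 3.37 and 2.90 in AF_MNA, with a difference of -1.84 ± 0.24 (adjusted p = 0.052), and Serpina12, an adipokine also made in liver, differed by -1.80 ± 0.25 (adjusted p = 0.066). Elovl3, a fatty acid elongase, measured 51.7, 42.5 and 28.0 FPKM in PF and 2.93, 14.8 and 16.8 in AF_MNA. The entry named Mup3 also holds Mup20, and most Mup genes are near-identical copies whose reads cannot be divided with certainty. The pseudogene Mup-ps19 was among the largest differences, -3.02 ± 0.76 (adjusted p = 0.19). Hsd11b1, which activates glucocorticoids, was the 1 member that rose, by 1.20.

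Of the 23 female-biased genes that entered the test 8 rose and none fell (34.8% called), and the median difference was 0.56. Cyp2b9 and Cyp2b13 entered only through AF_MNA, being near 0 in PF. With every entry above 0 FPKM 8 of 33 rose and the median was 0.39, and at a mean of at least 2 FPKM 8 of 16 rose and it was 1.34. The 8 were Cyp2b9, Cyp2b13, Cyp2a4, Cyp4a10, Cyp4a14, Acot3, Acot4 and Tox, of which several are also drug-inducible or PPAR alpha target genes. Without AF_MNA replicate 1 the list had 8 higher and 2 lower, and without AF_MNA replicate 2 it had 10 higher with a median of 0.92. It had 13 higher and a median of 0.54 with the intron signal as a covariate. The linear model with library size as a covariate gave 10 higher and a median of 1.25. Of 16 tested genes of growth hormone signalling itself 1 was called (6.25%), with a median of -0.05, and 2 were called without any one AF_MNA library or without PF replicate 2. Without AF_MNA replicate 1 these were 1 higher and 1 lower, with a median of 0.16. The linear model with library size as a covariate had 1 higher and none lower, with a median of -0.22. The member called with all libraries was Bcl6, a repressor, which measured 4.60, 12.5 and 4.90 FPKM in PF and 2.52, 0.72 and 1.84 in AF_MNA, a difference of -1.57 ± 0.42 (adjusted p = 0.22). Ghr, the growth hormone receptor, and Jak2, its kinase, differed by -0.80 ± 0.22 and -0.36 ± 0.12 without passing the threshold, and Igfbp1, an insulin-like growth factor binding protein, by 0.92 ± 0.27.

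**Figure D2:**
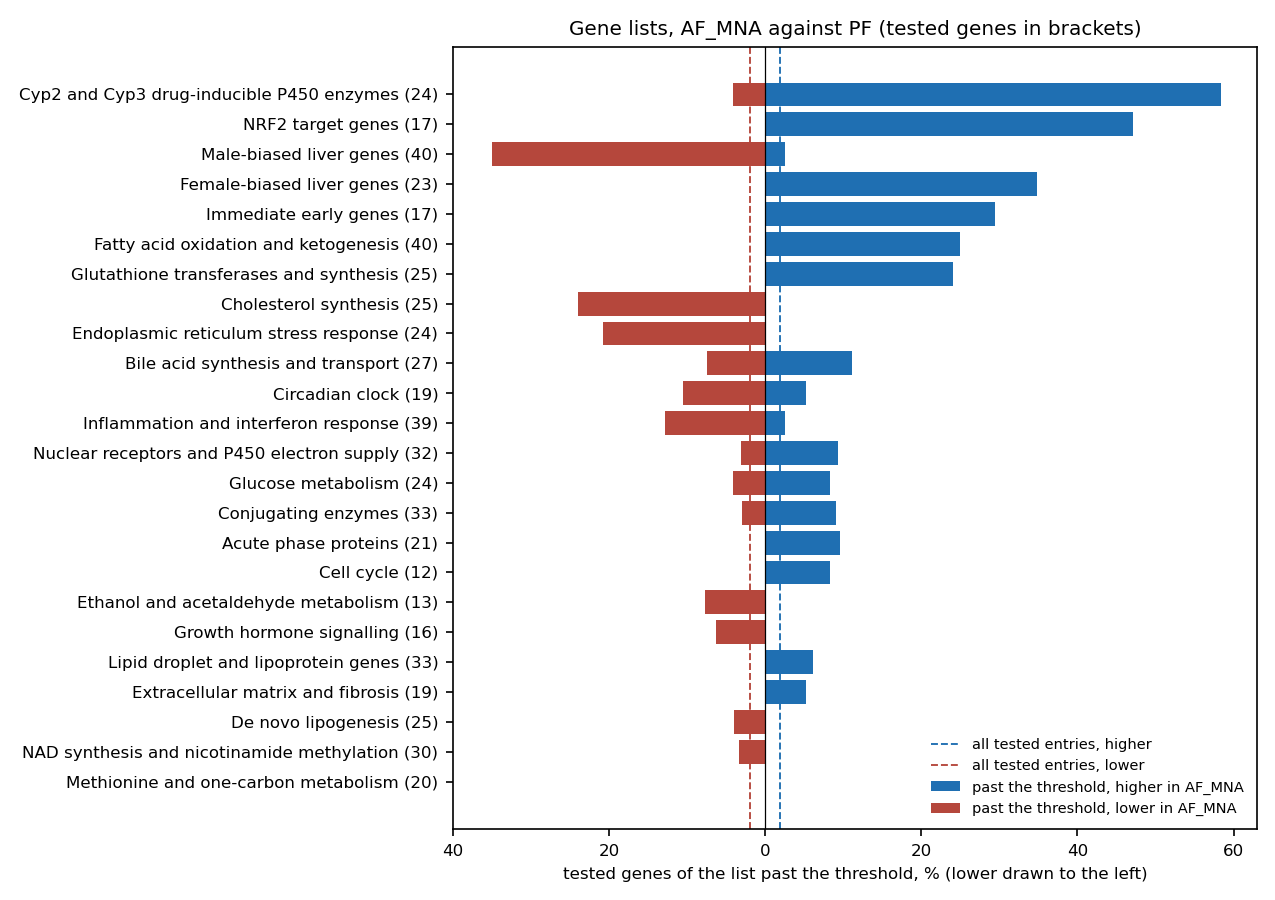
Share of tested genes past the threshold in each of 24 gene lists, higher in AF_MNA to the right and lower to the left, in percent, with dashed lines at the share among all tested entries (1.94% and 1.95%). The drug-inducible P450 enzymes reach furthest to the right and the male-biased liver genes furthest to the left.

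Of 40 tested genes of fatty acid oxidation and ketogenesis, 10 rose, none fell and 30 did not pass the threshold (25.0% called). In all 33 had a positive difference, and the median was 0.34. The list is wider than oxidation itself. The GO term fatty acid beta-oxidation had 0 of 29 tested genes called, with a median of 0.04. The KEGG term Fatty acid degradation had 2 higher and 2 lower of 36. The entry named Acot1, which also holds Acot2, codes for acyl-CoA thioesterases and measured 3.12, 5.07 and 4.82 FPKM in PF and 20, 24 and 26.6 in AF_MNA. All AF_MNA libraries were above all PF libraries, and the difference was 2.21 ± 0.19 (adjusted p = 0.017). The peroxisomal thioesterase genes Acot3 and Acot4 rose from 0.94, 0.67 and 4.10 and from 3.58, 1.23 and 7.45 FPKM to 9.26, 10.8 and 9.54 and to 23.9, 19.3 and 17.5, differences of 2.09 ± 0.42 and 2.25 ± 0.47. Ehhadh, the bifunctional enzyme of peroxisomal oxidation, measured 20.4, 9.59 and 9.09 FPKM in PF and 46.1, 42.4 and 61.01 in AF_MNA, a difference of 1.93 ± 0.32 (adjusted p = 0.098).

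Cyp4a10 and Cyp4a14, which hydroxylate fatty acids at their ends, both rose. Cyp4a14 measured 62.6, 45.7 and 28.9 FPKM in PF and 233, 233 and 324 in AF_MNA, a difference of 2.55 ± 0.30 (adjusted p = 0.039), and Cyp4a10 differed by 1.62 ± 0.32. Pdk4, which limits glucose oxidation, measured 0.40, 0.27 and 0.24 FPKM in PF and 3.53, 11.5 and 5.59 in AF_MNA, a difference of 2.47 ± 0.36 (adjusted p = 0.073). Being low in PF, it entered the test only through AF_MNA. Cd36, a fatty acid importer, rose from 5.98, 3.69 and 6.17 to 14.2, 11.6 and 14.4 FPKM. Slc22a5, the carnitine transporter, differed by 0.90 ± 0.12 (adjusted p = 0.059), and Cidec, a lipid droplet protein, rose by 0.52.

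Cpt1a and Cpt2, of the mitochondrial carnitine shuttle, did not pass the threshold. Cpt1a, the gate of mitochondrial oxidation, measured 25.1, 25.4 and 23.4 FPKM in PF and 25.2, 23.0 and 31.3 in AF_MNA, with overlapping groups and a difference of 0.09 ± 0.14 (adjusted p = 0.81). Cpt2 measured 36.9, 37.7 and 32.4 FPKM in PF and 33.9, 43.9 and 50.7 in AF_MNA, also with overlap, and differed by 0.24 ± 0.17 (adjusted p = 0.57).

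The thioesterase genes had lower values in AF than in AF_MNA. Acot4 measured 4.03, 9.08 and 5.14 FPKM in AF, Acot3 2.77, 3.19 and 7.19 and Acot1 2.93, 16.9 and 9.02. Of the 40 tested genes of the list 1 rose and 1 fell in AF against PF, with a median of 0.00, and both comparisons use the same PF libraries. In the direct test of AF_MNA against AF, 3 of the 40 were higher and none lower past the threshold, against 1.98% of 12214 entries in that comparison, and their median difference was 0.39 beside 0.01 over all entries. An unadjusted p under 0.05 was given to 14 of the 40 and to 5.22% of all entries there. The 3 were Acot1, Acot3 and Acot4, with differences of 1.45 ± 0.52 (adjusted p = 0.94), 1.10 ± 0.30 (adjusted p = 0.94) and 1.64 ± 0.27 (adjusted p = 0.39) by limma, so that no gene of the list passed the adjusted threshold. Ehhadh measured 6.41, 91.0 and 11.6 FPKM in AF and Pdk4 0.76, 24.0 and 1.67, so that AF replicate 2 lay above every AF_MNA library and the other AF libraries below.

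**Figure D3:**
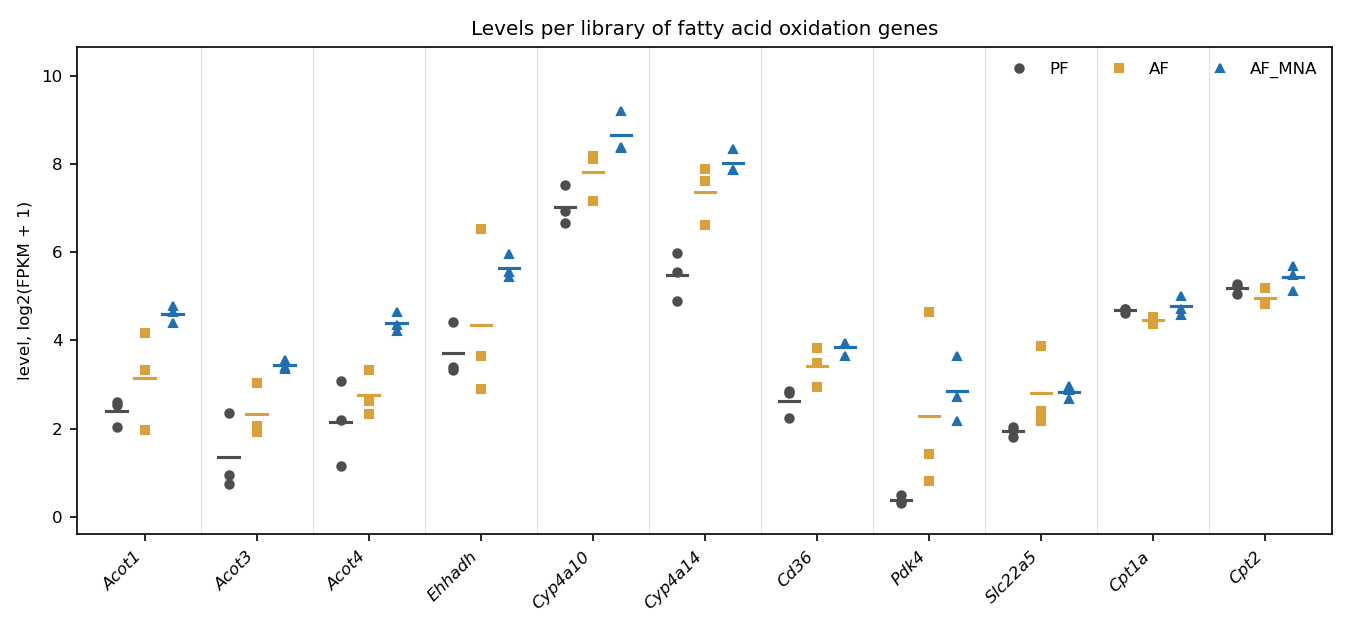
Levels of 11 fatty acid oxidation genes on the log2(FPKM + 1) scale in each library (points) with the group mean (bars). The 3 AF_MNA libraries lie above all PF and AF libraries for Acot1, Acot3 and Acot4, while the groups lie close together for Cpt1a and Cpt2.

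Of 25 tested genes of cholesterol synthesis 6 fell and none rose (24.0% called), and the median difference was -0.57. Hmgcs1, which makes the first committed intermediate, measured 53.1, 24.1 and 24.1 FPKM in PF and 11.0, 17.3 and 8.14 in AF_MNA. The groups did not overlap and the difference was -1.36 ± 0.39 (adjusted p = 0.23), which was not called without PF replicate 1. Msmo1, a sterol demethylase, fell from 17.6, 20.8 and 8.66 to 6.22, 2.86 and 1.57 FPKM, a difference of -1.92 ± 0.46 (adjusted p = 0.18). Mvd, Nsdhl, Stard4 and the entry named Fdps also fell, by 0.96, 1.59, 1.42 and 1.14 on the log2 scale, and the entry named Acat2 differed by -0.57 ± 0.14, under the threshold ratio. Without PF replicate 1 the count was 2 and without PF replicate 2 it was 3, and none passed in a linear model with library size as a covariate.

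The promoter of Hmgcs1 is shown because it was the 1 of the 4 fallen members with a RefSeq window that held the letters of the sterol regulatory element, TCACNCCAC on either strand, which 1.14% of the windows of tested genes hold. Capitals mark the match.
Hmgcs1, chr13:119690184-119690252, plus strand: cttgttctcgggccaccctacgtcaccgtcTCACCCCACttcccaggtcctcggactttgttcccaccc
In the same windows the direct repeat 1 core bound by PPAR alpha was found in 0 of 8 risen fatty acid oxidation genes against 2.51% of all windows, the STAT site in 1 of 10 fallen male-biased genes against 6.93%, and the metal response element core in both Mt1 and Mt2 against 58.9%. No match says only that these letters are not in the window.

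De novo lipogenesis was near the background, with 1 of 25 tested genes called (4.0%), Elovl5, and a median of -0.20. Elovl5, an elongase of unsaturated fatty acids, measured 86.3, 132 and 214 FPKM in PF and 66.7, 38.3 and 57.7 in AF_MNA, a difference of -1.33 ± 0.37 (adjusted p = 0.23). Without AF_MNA replicate 1 this list had 3 lower and 1 higher and a median of -0.36, without PF replicate 2 it had 2 lower and a median of -0.31, and without PF replicate 3 the median was 0.08. The linear model with library size as a covariate had none called and a median of 0.15. Fasn, the fatty acid synthase, ranged widely in both groups, from 54.8 to 135 FPKM in PF and from 36.9 to 127 in AF_MNA. Fads2, a desaturase, differed by -0.73 ± 0.17 (adjusted p = 0.16), Lpin2, a phosphatidate phosphatase, by 0.51 ± 0.11 and Scd2 by 0.34 ± 0.12.

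Of 33 tested lipid droplet and lipoprotein genes 2 rose (6.06% called), Cidec, which is also counted above, and G0s2, with a median of 0.09. None was called without AF_MNA replicate 3, without PF replicate 1, or with all 9 libraries in the fit. G0s2, an inhibitor of triglyceride breakdown, measured 32.9, 46.1 and 40.1 FPKM in PF and 61.4, 89.5 and 96.9 in AF_MNA, a difference of 1.03 ± 0.22 (adjusted p = 0.15). It lost its call without AF_MNA replicate 2, AF_MNA replicate 3 or PF replicate 1. Plin2, the main droplet coat protein, had overlapping groups and a difference of 0.71 ± 0.35 (adjusted p = 0.43). Hsd17b11 and Lipc differed by 0.53 ± 0.10 and 0.50 ± 0.10.

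Bile acid genes moved in both directions, with 3 of 27 tested members higher and 2 lower (18.5% called) and a median of 0.06, which was -0.01 without AF_MNA replicate 1 or PF replicate 1 and 0.14 without PF replicate 3. Cyp7a1, the rate-limiting enzyme of bile acid synthesis, measured 24.5, 65.8 and 26.0 FPKM in PF and 15.3, 8.26 and 3.57 in AF_MNA, and the difference was -2.02 ± 0.57 (adjusted p = 0.23). PF replicate 2 was the highest library, and the groups did not overlap. Slco1a1, an uptake transporter counted above as male-biased, also fell. Cyp39a1, which hydroxylates an oxysterol, rose from 10.6, 7.57 and 11.7 to 38.4, 20.8 and 31.4 FPKM, a difference of 1.49 ± 0.26 (adjusted p = 0.11), beside Abcc3 and Abcc4. Cyp2c70, which makes muricholic acids, differed by 0.86 ± 0.15 (adjusted p = 0.11), below the threshold ratio.

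Of 24 tested chaperones and factors of the endoplasmic reticulum stress response 5 fell and none rose (20.8% called), with a median of -0.30. Hspa5, the chaperone BiP, measured 124, 85.1 and 69.7 FPKM in PF and 29.7, 53.0 and 52.7 in AF_MNA, a difference of -1.03 ± 0.30 (adjusted p = 0.25). Xbp1, the factor that drives chaperone genes, fell from 26.8, 20.2 and 23.2 to 15.2, 5.95 and 8.43 FPKM, a difference of -1.25 ± 0.31 (adjusted p = 0.19), not called without AF_MNA replicate 2. Creld2 and Sdf2l1, proteins of the endoplasmic reticulum, differed by -1.49 ± 0.37 and -1.51 ± 0.38, and Atf5, a stress factor, by -0.97 ± 0.26, not called without AF_MNA replicate 1 or PF replicate 1. No AF_MNA library overlapped PF for these 5 genes. Atf4 and Ddit3, which act in the apoptotic arm, did not pass the threshold (differences of -0.02 and 0.17), and without AF_MNA replicate 1 the count of lower genes was 3. Without PF replicate 1 there were 3 lower and 1 higher with a median of -0.17, and without AF_MNA replicate 2 the median was -0.46.

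Among the 5 members that fell, all with a RefSeq window, 2 held the consensus of the endoplasmic reticulum stress response element on either strand, against 0.181% of the windows of tested genes. They are shown with the match in capitals.
Hspa5, chr2:34771995-34772073, plus strand: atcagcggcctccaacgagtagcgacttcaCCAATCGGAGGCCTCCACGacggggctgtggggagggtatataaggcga
Creld2, chr15:88819490-88819568, plus strand: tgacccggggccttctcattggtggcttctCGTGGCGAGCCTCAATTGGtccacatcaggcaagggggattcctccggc

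Of 39 tested genes of inflammation and the interferon response 5 fell and 1 rose (15.4% called), with a median of -0.16. The 5 were Ifit1, Ifit2, Ifi44, Isg15 and Mx2, all of them interferon-stimulated and expressed at low FPKM. Ifi44 measured 0.92, 0.83 and 0.72 FPKM in PF and 0.40, 0.29 and 0.37 in AF_MNA, a difference of -0.43 ± 0.09 (adjusted p = 0.15), and Isg15, a ubiquitin-like protein, measured 2.85, 2.03 and 0.80 and 0.07, 0.76 and 0.58. Ifi27l2b rose, from 1.18, 0.82 and 0.44 to 3.38, 1.92 and 2.40 FPKM. Iigp1, an interferon-inducible GTPase, differed by -0.74 ± 0.12 (adjusted p = 0.091), under the threshold ratio. The summed markers of T, B or NK cells were also lower in AF_MNA, as given above, and their part in these values was not tested. The calls depended on the settings. Without PF replicate 1 there was 1 lower and 2 higher, and without PF replicate 2 there were 2 lower. With limma's estimate as the fold change 1 was lower and none higher, at a mean of at least 2 FPKM 1 of 18 was lower and none higher, and with the replicate number as a block 2 were lower and 1 higher. The linear model with library size as a covariate also had 2 lower and 1 higher.

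Of the 4 fallen members with a RefSeq window 2 held the core of the interferon-stimulated response element on either strand, against 3.16% of the windows of tested genes. It occurred more than once in both promoters, in Isg15 in overlapping copies, and the copy nearest the start is in capitals.
Isg15, chr4:156200845-156200914, minus strand: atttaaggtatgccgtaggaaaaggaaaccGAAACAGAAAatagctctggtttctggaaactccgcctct
Ifit1, chr19:34640774-34640843, plus strand: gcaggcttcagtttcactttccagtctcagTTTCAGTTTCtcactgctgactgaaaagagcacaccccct

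Of the 17 immediate early genes that entered the test 5 rose and none fell (29.4% called), with a median of 0.30, and 3 rose without AF_MNA replicate 2 or PF replicate 2. Of the called genes Gadd45b and Junb averaged below 0.5 FPKM in PF and entered through AF_MNA. With every entry above 0 FPKM 4 of 27 rose and the median was 0.10, at a mean of at least 2 FPKM 1 of 9 rose, and with limma's estimate as the fold change 2 rose. In the linear model with library size as a covariate 1 rose, and with all 9 libraries in the fit 3 rose. Gadd45b, a growth arrest gene, measured 0.15, 0.45 and 0.34 FPKM in PF and 1.29, 1.08 and 1.02 in AF_MNA, a difference of 0.70 ± 0.12 (adjusted p = 0.11). Myc measured 1.47, 0.73 and 0.53 and 2.72, 1.69 and 2.28 FPKM, and Cdkn1a, the cell cycle inhibitor p21, measured 0.79, 0.63 and 0.17 and 4.96, 1.23 and 8.39. The groups did not overlap for these 3 genes, though their levels were low. Fosl2 rose by 0.54, and Junb was listed at 0 in each PF library and in AF_MNA replicate 1, and at 10.6 and 6.90 FPKM in the other two. A listed 0 can be a failed estimate, so the Junb call does not show a rise from a low level. Gadd45g differed by 0.73 ± 0.18, under the threshold ratio.

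Of 21 tested acute phase proteins 2 rose and none fell (9.52% called), with a median of 0.11. The 2 were the metallothioneins Mt1 and Mt2, which bind zinc and rise with glucocorticoids. Mt1 measured 27.8, 7.30 and 6.98 FPKM in PF and 104, 92.0 and 77.3 in AF_MNA, and the difference was 2.88 ± 0.51 (adjusted p = 0.11). Mt2 measured 24.4, 4.36 and 3.08 and 68.1, 40.5 and 63.4 FPKM, a difference of 2.79 ± 0.69 (adjusted p = 0.19). PF replicate 1 was the highest PF library for both and still below AF_MNA, and it was also the highest PF library for Saa1, at 184 FPKM against 4.88 and 2.70. The median of the list was 0.55 without PF replicate 1, -0.33 and -0.29 without PF replicates 2 and 3, and -0.07 and -0.08 without AF_MNA replicates 1 and 2. Apcs, serum amyloid P, and the entry named Hamp, which codes for hepcidin and also holds Hamp2, did not pass the threshold (differences -2.70 ± 1.31 and 1.00 ± 0.51). Apcs was called lower with all 9 libraries in the fit, with the replicate number as a block, and without AF_MNA replicate 1 (difference -3.67).

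Of 13 tested genes of ethanol and acetaldehyde metabolism 1 was called (7.69%), Adh4, and the median was 0.23. The median was 0.08 without AF_MNA replicate 1, -0.01 without AF_MNA replicate 2, and 0.13 and 0.05 without PF replicates 1 and 3. Adh4, an alcohol dehydrogenase that also oxidises retinol, measured 109, 52.8 and 74.6 FPKM in PF and 25.0, 35.3 and 28.7 in AF_MNA, without overlap, a difference of -1.33 ± 0.28 (adjusted p = 0.15). Cyp2e1, the ethanol-oxidising P450, measured 3122, 3754 and 3104 FPKM in PF and 2993, 3018 and 3378 in AF_MNA, and the groups overlapped (difference -0.08 ± 0.18 (adjusted p = 0.87)). Adh1, the main alcohol dehydrogenase, differed by 0.67 ± 0.17 (adjusted p = 0.20), Aldh1a1 by 0.70 ± 0.18, and Aldh2, which oxidises acetaldehyde, by 0.25 ± 0.12. Acss2, which activates acetate, differed by -0.66 ± 0.27.

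Of 30 tested genes of NAD synthesis and nicotinamide methylation 1 was called (3.33%), near the background, with a median of -0.05, and 2 were called without PF replicate 1. Nnmt, the methyltransferase of nicotinamide, measured 21.9, 13.8 and 10.2 FPKM in PF and 13.1, 16.7 and 20.3 in AF_MNA, with overlapping groups and a difference of 0.16 ± 0.29 (adjusted p = 0.85). Aox3, an aldehyde oxidase of mouse liver, fell from 65.8, 60.6 and 53.8 to 21.3, 28.7 and 26.4 FPKM, a difference of -1.21 ± 0.15 (adjusted p = 0.044). Its relative Aox1 differed in the other direction, by 0.73 ± 0.13 (adjusted p = 0.11), with no overlap between the groups and under the threshold ratio. Nadsyn1 and Parp1 differed by -0.34 ± 0.11 and -0.37 ± 0.12.

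None of 20 tested genes of methionine and one-carbon metabolism was called (0.0%), and their median was 0.06 (0.03 without AF_MNA replicate 1 and 0.11 without AF_MNA replicate 3). By limma 5 of the 20 had an unadjusted p under 0.05. Mat1a, which makes S-adenosylmethionine in hepatocytes, measured 285, 329.7 and 336 FPKM in PF and 612, 402 and 649 in AF_MNA, a difference of 0.78 ± 0.22 (adjusted p = 0.23). Gnmt, which uses it to methylate glycine, differed by 0.62 ± 0.15, Aldh1l1 by 0.50 ± 0.12 and Mat2a by 0.60 ± 0.20.

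Clock genes were called for 3 of 19 tested members (15.8%), 1 higher and 2 lower, with a median of 0.02 that lay between -0.10 (without PF replicate 1) and 0.12 (without PF replicate 2), and the hour of killing is not given in the sources used here. Bhlhe40, a repressor of the clock, measured 17.5, 13.03 and 17.3 FPKM in PF and 3.98, 4.67 and 5.20 in AF_MNA, a difference of -1.59 ± 0.15 (adjusted p = 0.023). Bhlhe41 and Arntl differed by -0.59 ± 0.19 and 0.50 ± 0.16 at levels near 1 FPKM or below, and Cry1 by 0.61 ± 0.16, under the threshold ratio. Arntl, the 1 clock gene that rose, averaged 0.25 FPKM in PF and entered the test only through AF_MNA. Without AF_MNA replicate 2 only 1 clock gene and 1 glucose gene were called. Only 1 clock gene, lower, was called at a mean of at least 2 FPKM or with limma's estimate as the fold change. The linear model with library size as a covariate had 1 clock gene lower and 1 glucose gene higher. Of 24 glucose metabolism genes 2 rose and 1 fell (12.5% called), with a median of 0.07 that lay between 0.03 (without AF_MNA replicate 1) and 0.17 (without PF replicate 3). Besides Pdk4 these were Txnip, an inhibitor of thioredoxin, with a difference of 1.01 ± 0.23 (adjusted p = 0.16), and Pfkfb3, an activator of glycolysis, with a difference of -0.78 ± 0.25 (adjusted p = 0.27). Txnip lost its call without AF_MNA replicate 2, PF replicate 1 or PF replicate 2.

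Of 12 tested cell cycle genes only Cdkn1a was called (8.33%), with a median of -0.11, and Ccng1, Ccne2 and Mcm6 differed by -0.40 ± 0.10, -0.38 ± 0.11 and -0.25 ± 0.13. The cell cycle count was 3 without AF_MNA replicate 1 or 2, 2 without AF_MNA replicate 3 and 0 without PF replicate 3, and the median was -0.05 without AF_MNA replicate 1 or PF replicate 2 and -0.03 without PF replicate 3. Of 19 extracellular matrix genes 1 was called (5.26%), with a median of 0.14. It was Ctgf, a matrix-regulating growth factor, which measured 1.46, 1.91 and 2.15 FPKM in PF and 11.9, 2.51 and 6.19 in AF_MNA, with AF_MNA replicate 1 the highest. It was called only with all 6 libraries or without AF_MNA replicate 2. Col4a2, Col3a1 and Pdgfra differed by 0.40 ± 0.10, -0.32 ± 0.12 and 0.33 ± 0.11. Among markers of other cells, Marco and Lyz2 of macrophages rose, by 0.90 and 1.34, Ighm of B cells and Alas2 of erythroid cells fell, by 0.80 and 1.28 on the log2 scale, and no marker of stellate or sinusoidal endothelial cells was called. Of the 8 sinusoidal endothelial markers, 5 had an unadjusted p under 0.05 by limma, and their summed levels given above did not overlap between the groups. The summed levels of T, B or NK cell markers did not overlap either and were lower in AF_MNA. The part of these shifts in the other results was not tested.

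Several of the lowest adjusted p-values belonged to genes outside these lists. Dynlt3, a dynein light chain, measured 2.58, 1.85 and 2.23 FPKM in PF and 15.5, 12.3 and 11.7 in AF_MNA, a difference of 2.13 ± 0.15 (adjusted p = 0.0088). Zfp36l2, which destabilises messenger RNAs, rose from 2.30, 1.22 and 1.68 to 11.7, 10.7 and 10.2 FPKM, a difference of 2.14 ± 0.16 (adjusted p = 0.012), and Aldh5a1, succinic semialdehyde dehydrogenase, from 3.93, 4.14 and 4.43 to 12.3, 10.5 and 10.3, a difference of 1.22 ± 0.11 (adjusted p = 0.017). All 3 genes had tight groups without overlap.

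Others rested on values of 0. Frat1, an activator of Wnt signalling, was listed at 2.13, 1.98 and 1.84 FPKM in PF and at 0 in all 3 AF_MNA libraries, and Fzd8, a Wnt receptor, at 4.81, 2.80 and 5.75 in PF and 0 in all of AF_MNA. The histone gene Hist1h3b was listed at 1.45, 1.19 and 1.37 in PF and 0 in AF_MNA, and the small nuclear RNA entry Gm22068, the lowest adjusted p of all (0.0026), at 584, 217 and 428 and 0. An exact 0 in such a table can be a failed estimate, and of 3254 protein-coding entries with a median of at least 5 FPKM over the 6 libraries, 19 were listed at 0 in at least 1. Rnu1a1, another U1 small nuclear RNA, was listed at 583, 215 and 425 FPKM in PF and 2.22, 0 and 21.3 in AF_MNA. U1 genes are near-identical copies, and small nuclear RNAs together summed to 3085 to 4603 FPKM in PF and 2687 to 7246 in AF_MNA, so that these entries are uncertain.

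A further 4 entries of the largest differences had libraries far apart within AF_MNA. H1f0, a linker histone, was listed at 25.1, 24.8 and 26.9 FPKM in PF and 0, 23.0 and 0 in AF_MNA. Lrrc3 measured 24.8, 26.9 and 20.9 and 1.68, 20.3 and 1.42 FPKM. RP23-257B9.4 was listed at 24.7, 16.5 and 22.5 in PF and 0, 0 and 14.2 in AF_MNA, and Vaultrc5, a vault RNA, at 1.17, 0 and 0 and 33.2, 1.41 and 47.9. For each of them 1 AF_MNA library lay at or near PF values, and leaving out single libraries removed the call.

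The gene table also assigns GO and KEGG terms. Of the 21 terms that the study's own enrichment names and that had at least 3 tested genes, 20 had a larger share of called genes than the 3.89% of all entries, and the exception was lyase activity (3.45%). Those terms were named by the study from alcohol-fed and pair-fed libraries of this series, so the list is not independent evidence. The largest shares were in aromatase activity, with 6 higher and 2 lower of 18 tested genes (44.4%), and the epoxygenase P450 pathway, with 6 higher and 1 lower of 16 (43.8%). Arachidonic acid metabolism had 9 higher and 2 lower of 33 (33.3%), retinol metabolism 11 higher and 3 lower of 45 (31.1%), and monooxygenase activity 14 higher and 4 lower of 65 (27.7%).

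Terms of lipid handling had smaller shares, several of which depended on single libraries. PPAR signaling pathway had 4 higher and 3 lower of 49 (14.3%), steroid metabolic process 2 higher and 5 lower of 53 (13.2%), lipid metabolic process 6 higher and 9 lower of 254 (5.91%) and fatty acid metabolic process 2 higher and 2 lower of 96 (4.17%). Without AF_MNA replicate 1 the steroid term had 12 of 53 called (22.6%), the lipid term 23 of 254 (9.06%) and the fatty acid term 7 of 96 (7.29%). Without PF replicate 2 the steroid term had 4 higher and 3 lower and the lipid term 9 higher and 8 lower. In the linear model with library size as a covariate no gene was lower in either, and 3 and 5 were higher, while the fatty acid term had 1 higher and 1 lower, PPAR signaling pathway 3 and 1, and response to oxidative stress 2 and 1. Response to oxidative stress had 6 higher and 1 lower of 86 (8.14%), and 3 higher and 1 lower without AF_MNA replicate 2 or PF replicate 2. Among terms added for this comparison, glutathione transferase activity had 7 higher of 17 (41.2%), pheromone binding, which holds the Mup genes, 3 lower of 16 (18.8%), cholesterol biosynthetic process 3 lower of 23 (13%; 5 called, 21.7%, without AF_MNA replicate 1), and defense response to virus 1 higher and 8 lower of 79 (11.4%). Ribosome (0.885%), oxidative phosphorylation (1.1%), translation (1.27%) and cell cycle (2.64%) were below the background, and no gene was called in fatty acid beta-oxidation (29 tested), acute-phase response (20 tested) or the KEGG term Peroxisome (63 tested). Without AF_MNA replicate 1 the Peroxisome term had 4 called (6.35%), the translation term 1 of 237 (0.422%) and the Ribosome term 0 of 113, while beta-oxidation and the acute-phase response still had none.

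**Figure D4:**
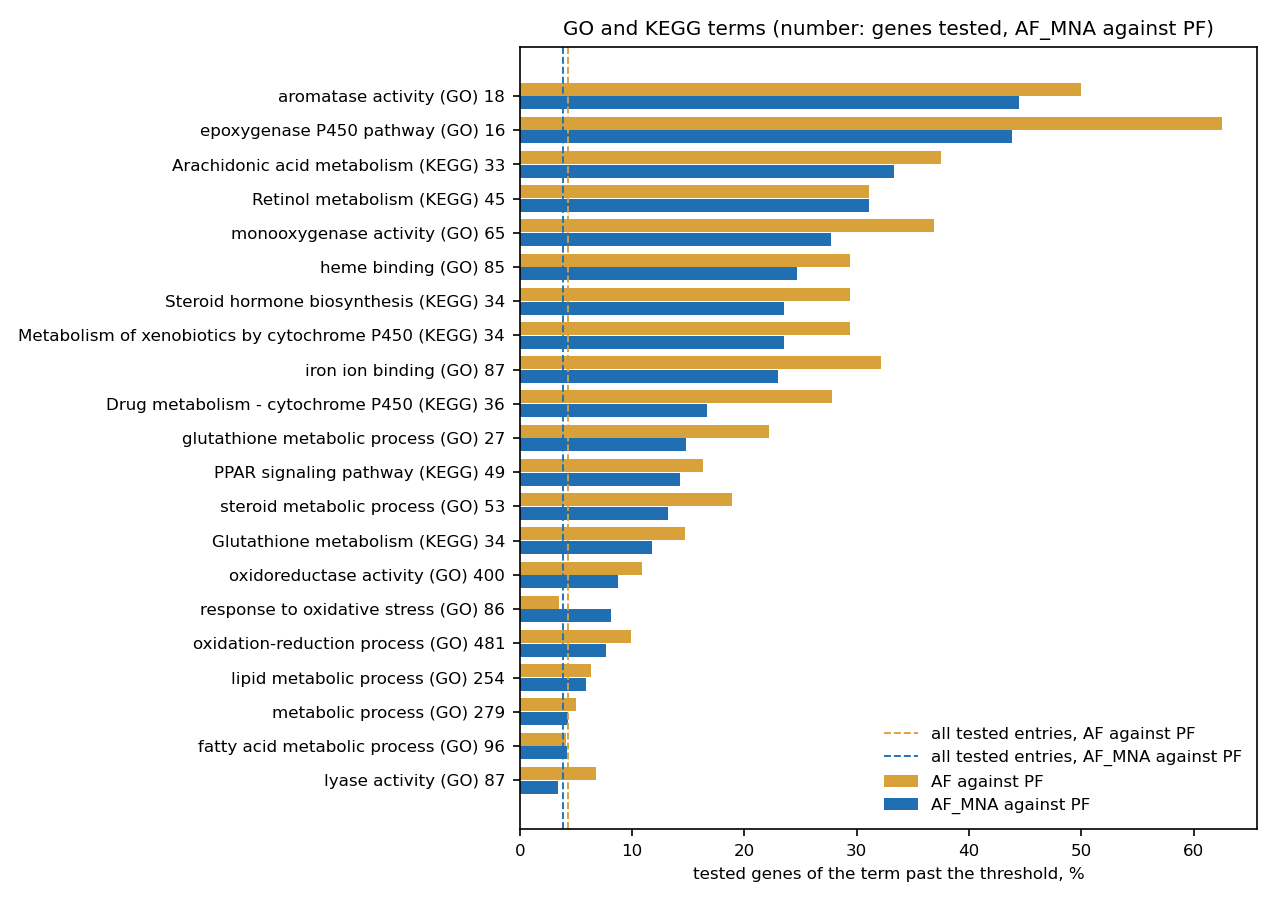
Share of tested genes past the threshold in 21 GO and KEGG terms, in percent, for AF against PF and AF_MNA against PF, with dashed lines at the share among all tested entries (4.3% and 3.89%). The P450 terms have the largest shares in both comparisons, which use the same PF libraries.

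The values of AF, fed alcohol without MNA, are set beside those of AF_MNA. AF against PF had 527 of 12268 entries past the threshold (4.3%), 239 higher (1.95%) and 288 lower (2.35%), and it shares its PF libraries with the MNA comparison. Without AF replicate 3, which had a high intron signal (9433 FPKM), 764 of 12188 entries passed, 280 of them higher. Of the drug-inducible P450 enzymes 14 rose and 2 fell in AF, with a median of 1.37 beside 1.40 in AF_MNA. For the NRF2 targets AF had 8 higher and 1 lower with a median of 0.85 beside 0.78, for the male-biased genes 16 lower and 1 higher with -0.99 beside -0.84, and for cholesterol synthesis 6 lower with -0.73 beside -0.57. Cyp2b10 was 6.65 ± 0.53 from PF in AF and 6.14 ± 0.53 in AF_MNA, and Mup21 was -5.16 ± 0.45 and -5.15 ± 0.46.

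In the direct comparison of AF_MNA with AF, 242 of 12214 entries (1.98%) passed the threshold and 6 (0.0491%) had an adjusted p under 0.05 by limma, none of them a member of a gene list. Without AF replicate 3, 367 entries passed. For the drug-inducible P450 enzymes the median difference between AF_MNA and AF was 0.05 and none passed. For the male-biased genes it was 0.34 with 1 higher, and for the NRF2 targets -0.11 with none. A gene that misses the threshold is not shown to be alike in both groups, and the difference between them was -0.51 ± 0.31 for Cyp2b10 and 0.34 ± 1.11 for Cyp4a12a.

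Some genes other than those of fatty acid oxidation are set beside their AF values here. They were picked for this after their values were seen. The share of all entries whose AF and AF_MNA libraries do not overlap was not counted. Mt1 measured 198, 512 and 151 FPKM in AF and 104, 92.0 and 77.3 in AF_MNA, a difference of -1.45 ± 0.45 (adjusted p = 0.94), and Mt2 measured 163, 493 and 89.6 and 68.1, 40.5 and 63.4, a difference of -1.77 ± 0.60 (adjusted p = 0.94). All AF libraries were above all AF_MNA libraries for both genes. Sult2a8 measured 41.9, 31.1 and 37.2 FPKM in AF, below AF_MNA in every library, and Zfp36l2 8.62, 3.53 and 3.12, also below AF_MNA. Neither passed the adjusted threshold against AF (adjusted p = 0.94 and 0.94).

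**Figure D5:**
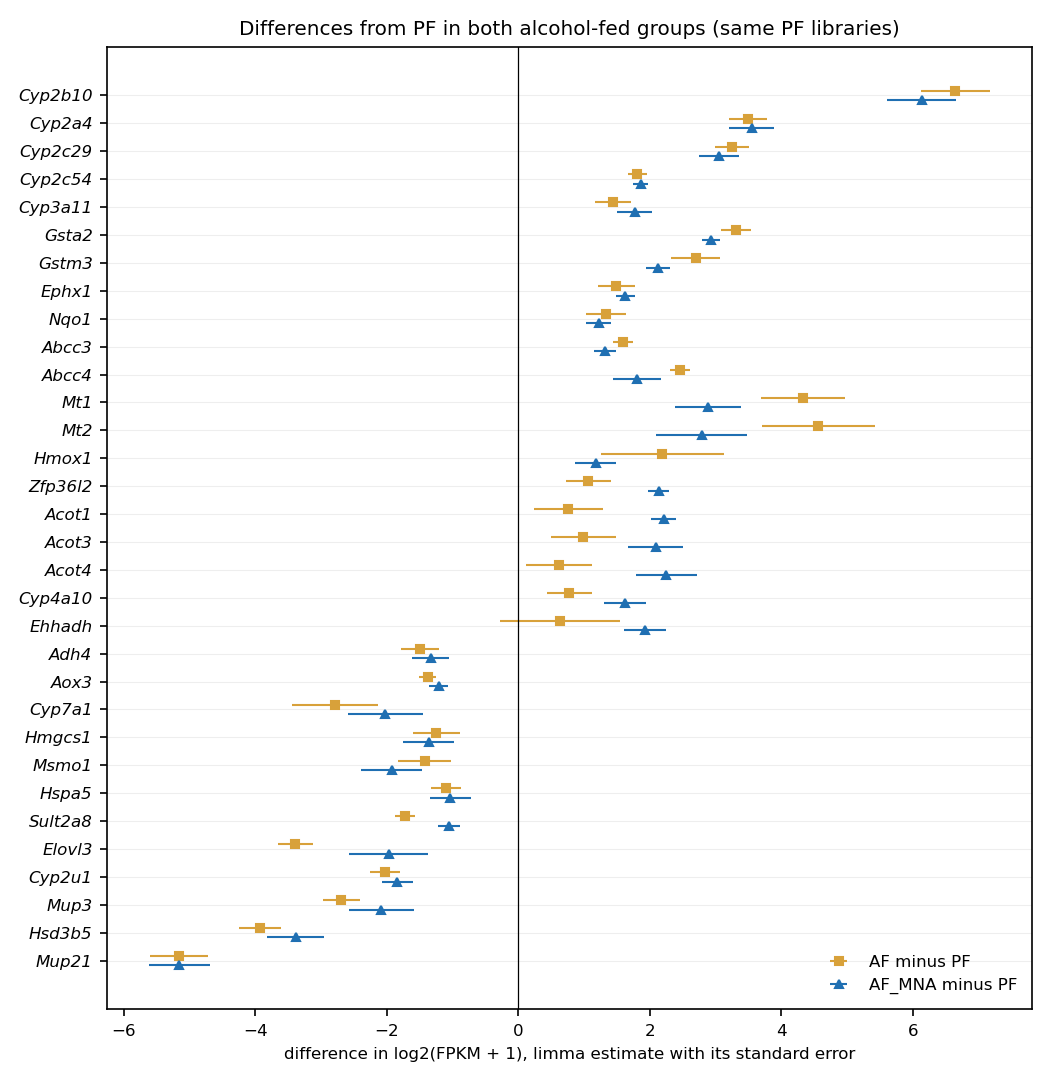
Difference from PF on the log2(FPKM + 1) scale with its standard error for 32 genes in AF (squares) and AF_MNA (triangles), both against the same 3 PF libraries. Cyp2b10 lies furthest to the right and Mup21 furthest to the left in both groups, Acot1, Acot3 and Acot4 lie further to the right in AF_MNA, and Mt1 and Mt2 further to the right in AF.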

How the data were processed

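Liver RNA was sequenced from ribosome-depleted, strand-specific libraries, 3 each of PF, AF and AF_MNA, and groups were taken from the sample labels. Per the submitters' processing notes, the authors used cutadapt 1.9, FastQC, HISAT2, TopHat, StringTie 1.3.4 and edgeR. The genome build is not given in the sources used here. The deposited gene table holds FPKM values computed by the authors and rounded to 2 decimals. The deposited lncRNA table holds read coverage and FPKM per transcript, from which the intron signal was summed. The deposited circRNA table holds junction counts and a scaled signal, from which the total reads of each library were recovered by division. FPKM values carry no counting error of their own, so precision rests on the spread between libraries. No source used here says from which animal each library came, so p-values measure only the spread between these samples.

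Values were transformed as log2(FPKM + 1) and fitted with limma 3.58.1 (R 4.3.3, moderated with an intensity trend) over the 6 libraries, with Benjamini-Hochberg adjustment over all tested entries. The p and fold thresholds follow the study's methods. The fit was tested on simulated data. The gene lists, terms and the comparison itself were chosen with earlier results of these data known. Named genes were the 12 largest differences in each direction among called, non-overlapping entries other than predicted models, the 15 lowest adjusted p-values, up to 4 members of each list with the lowest unadjusted p, and 8 genes chosen for their role. Further list members were named after their values were seen. Promoter windows and their coordinates are from RefSeq on GRCm38.p6. Windows span 250 bases before to 50 after the start, and motifs were searched on both strands. Some members of the lists are counted but not reported by name here.

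Alternatives were another pseudocount, 2 scalings, filters on low FPKM, no intensity trend, all 9 libraries in one fit, entries without merged genes, limma's estimate as the fold change, an unmoderated linear model with a library-size covariate, the replicate number as a block, and leaving out each library. The intron signal as a covariate and the removal of entries listed at 0 were added after seeing the data.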

Additional observations from a re-analysis of the deposited data

Results flagged for a closer look

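Between AF_MNA and AF, 6 entries had an adjusted p under 0.05 by limma, and none belonged to the gene lists. The U1 small nuclear RNA entry Gm24924 was listed at 0 in all AF_MNA libraries and at 814, 537 and 812 FPKM in AF (difference -9.47), while PF had 581, 212 and 0. Gm26244, a similar entry, had 13.7, 27.9 and 20 FPKM in AF_MNA against 817, 537 and 811 in AF (difference -5.10). U1 genes are near-identical copies and how far they share reads was not tested, so these values are uncertain. RP24-282C4.9 was listed at 0 in all AF_MNA libraries and at 3.88, 2.97 and 4.65 FPKM in AF (difference -2.26), and the antisense entry Gm17103 had 0.33, 0.38 and 0.33 FPKM against 2.08, 2.13 and 2.24 (difference -1.23). B3galt6, a galactosyltransferase of proteoglycan synthesis, was listed at 0 in all AF libraries and at 1.06, 1.00 and 1.10 FPKM in AF_MNA (difference 1.04). Gm44249 was likewise listed at 0 in AF and at 1.06, 1.06 and 1.00 FPKM in AF_MNA (difference 1.03).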

How the results depend on the processing

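The count of 477 entries past the threshold became 1104 with every entry above 0, 228 at a mean of at least 2 FPKM, 229 with limma's estimate as the fold change and 247 in the linear model with a library-size covariate, and it ranged from 467 to 545 with single libraries left out. The 53 entries with an adjusted p under 0.05 became 22 with every entry above 0, 35 with the intron signal as a covariate and 0 in the linear model with a library-size covariate, where 1227 had an unadjusted p under 0.05, and ranged from 24 to 47 with single libraries left out. At a mean of at least 2 FPKM, AF against PF had 265 entries and AF_MNA against AF 81. AF_MNA against AF ranged from 211 to 367 with single libraries left out. The cause of these shifts was not tested.

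Libraries with the same replicate number did not deviate together across entries (correlations of -0.05, -0.02 and -0.08 between AF_MNA and PF). What the numbers stand for is not given, and a pairing that acts on only some genes cannot be seen this way. With the replicate number as a block 488 entries passed the threshold, 0 had an adjusted p under 0.05 and 1452 an unadjusted p under 0.05.

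No named gene past the threshold changed direction under the alternatives run, while Nr1i2, which was not past it, had differences from -0.12 to 0.22. In the linear model with a library-size covariate no member was called of the lists of P450 receptors and partners, ethanol metabolism, lipogenesis, lipid droplets, cholesterol synthesis, acute phase proteins and the cell cycle. Of 71 called named genes, 23 lost the call in the linear model with a library-size covariate, 9 with limma's estimate as the fold change and 6 with all 9 libraries in the fit. Leaving out a library with 3 a group leaves few residual degrees of freedom, and low FPKM values rounded to 2 decimals limit what can be seen in weakly expressed genes.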
